A study of Mus musculus with 6 samples.

Results

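Complement genes were followed in RNA sequencing of bulk prefrontal cortex (PFC) from 6 mice. The 9 genes were taken by symbol for their roles in the complement cascade: the C1q chains C1qa, C1qb and C1qc, the central components C3, C4a and C4b, the anaphylatoxin receptors C3ar1 and C5ar1, and the inhibitor Serping1. All 9 were found among the 54429 genes of the count files. There were 2 libraries in each of 3 groups: wild-type mice (WT, C57BL/6 x C3H) given vehicle, PS19(P301S) mice (Tau) given vehicle, and PS19(P301S) mice given UNC0642 at 1 mg/kg by intraperitoneal injection once a day for 3 days. The labels give an age of 6 months for all mice. The PS19 line expresses a human tau with the P301S mutation under the mouse prion promoter, on a mixed background shared with its WT littermates. UNC0642 is an inhibitor of the histone methyltransferases EHMT1 and EHMT2. No WT mice given UNC0642 were analysed, so the drug was seen on the transgenic background alone.

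Complement is a cascade of secreted proteins that tags surfaces for removal. C1q recognises the surface and activates the proteases C1r and C1s, which cleave C4 and C2 and so lead to the cleavage of C3. Fragments released on the way act on the receptors C3ar1 and C5ar1, and Serping1 (C1 inhibitor) blocks C1r and C1s. In the brain, C1q is made mainly by microglia and C4 by astrocytes and oligodendrocytes among others, and C1q and C3 are known for marking synapses that microglia then remove.

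The library totals ranged from 17005664 to 28972176 counts, so that 3 counts, taken as the floor of detection, amounted to 0.107 to 0.178 CPM, the counts of a gene scaled to a common library size with TMM factors. The libraries carried the markers of neurons, astrocytes, oligodendrocytes and microglia, whereas 9 blood leukocyte markers summed to 0.414 to 3.07 CPM, with 7 of them at 0 in at least 1 library. Mapt, which encodes tau, was at 576 CPM in the library labelled WT replicate 1 and at 449 CPM in WT replicate 2, against 571 to 614 CPM in the 4 transgenic libraries. Prnp, whose promoter and flanking sequence drive the transgene, was at 1652 CPM in the library labelled WT replicate 1 and at 873 CPM in WT replicate 2, against 1470 to 1694 CPM in the transgenic libraries. The library labelled WT replicate 1 thus had the level of the transgenic libraries, and the comparisons of the tested members with WT are also given without it. By Xist and the Y-linked gene Ddx3y, WT replicate 2 and both Tau libraries had the female pattern (4104 to 8107 Xist counts), and the library labelled WT replicate 1 and both UNC0642 libraries the male pattern (2 to 5 Xist counts). Treatment and sex pattern therefore cannot be told apart between the treated and untreated Tau groups. A term for the sex pattern, used in some fits below, rests on the 2 WT libraries alone. A call lost or gained with that term is therefore no separate check of a difference between these groups. In bulk tissue, fewer cells of a type and less RNA per cell cannot be told apart either.

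The C1q chains are encoded side by side on chromosome 4. In GRCm38, C1qb lies at chr4:136880129-136886187, C1qc at chr4:136889804-136893065 and C1qa at chr4:136895917-136898803, all on the minus strand and within 18675 bases. The promoters of C1qb (chr4:136886151-136886450) and C1qc (chr4:136892865-136893164) are shown because both genes were called in a comparison and because the chains sit in 1 cluster. They run from 250 bases before to 50 after the start of the gene, 5′ to 3′ on the minus strand, from RefSeq on GRCm38.p6, and the capitals mark the core letters GAGGAA of PU.1, a transcription factor of myeloid cells, searched on both strands.
C1qb: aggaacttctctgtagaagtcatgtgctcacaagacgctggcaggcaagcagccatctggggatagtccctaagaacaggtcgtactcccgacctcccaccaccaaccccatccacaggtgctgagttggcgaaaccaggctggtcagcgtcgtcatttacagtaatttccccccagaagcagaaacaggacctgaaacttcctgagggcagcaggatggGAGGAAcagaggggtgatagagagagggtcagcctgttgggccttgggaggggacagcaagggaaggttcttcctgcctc
C1qc: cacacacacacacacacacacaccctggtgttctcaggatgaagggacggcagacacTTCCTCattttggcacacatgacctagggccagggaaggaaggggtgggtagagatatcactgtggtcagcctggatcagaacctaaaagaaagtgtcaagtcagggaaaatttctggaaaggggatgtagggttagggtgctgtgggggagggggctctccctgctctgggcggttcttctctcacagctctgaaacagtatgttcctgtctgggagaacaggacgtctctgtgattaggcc
The match began at position −30 from the start site of C1qb, on the strand of the gene, and at −193 from that of C1qc, on the opposite strand. RefSeq promoters were held for 5 of the 9 genes, and C3, C3ar1 and C5ar1 did not have these letters in the window. GAGGAA occurred in 28.3% of all 32851 promoters of this length, and the longer PU.1 site GAGGAAGT, which contains it, in 3.20%, C1qc among them. The AP-1 letters TGACTCA occurred in 5.20% of promoters and in that of C3ar1, and in no other of the 5. A match is a run of letters and not a measured binding site.

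C4a and C4b lie on chromosome 17, at chr17:34809092-34823464 and chr17:34728380-34743882 on the minus strand, and are close copies of each other. In the mouse, C4b encodes the C4 protein of the classical pathway, while C4a (sex-limited protein) is typed as a processed transcript in GENCODE M21. Their transcripts C4a-207 with 5371 bases and C4b-201 with 5379 bases were identical at 5160 of 5367 aligned bases, an identity of 96.1%. The 120 bases of exon 21 with the most differences are shown, because reads from such stretches are what separates the 2 genes in the counts. The stretch lies at chr17:34816086-34816205 in C4a and chr17:34735430-34735549 in C4b (GRCm38, minus strand, 5′ to 3′), and the capitals mark the 19 bases that differ.
C4a: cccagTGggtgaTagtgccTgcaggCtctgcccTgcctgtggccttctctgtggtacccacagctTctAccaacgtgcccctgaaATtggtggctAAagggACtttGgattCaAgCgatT
C4b: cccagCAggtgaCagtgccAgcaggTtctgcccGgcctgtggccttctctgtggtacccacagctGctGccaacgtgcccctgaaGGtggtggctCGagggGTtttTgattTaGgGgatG
Of all stretches of 100 bases in the C4a transcript, 16.5% were also in C4b without a difference, and of those of 50 bases, 35.2% were. How reads that matched both genes were counted is not given in the sources used here, so the split between C4a and C4b is uncertain.

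Levels differed widely between the 9 genes. Per kilobase of exon, averaged over all 6 libraries, C1qa was at 35.4 CPM per kb, C1qb at 18.6 and C1qc at 11.6. C4b followed at 2.75 CPM per kb and Serping1 at 1.45. The lowest levels per kilobase were those of C3ar1 with 0.578, C4a with 0.277, C5ar1 with 0.192 and C3 with 0.0513 CPM per kb. All other levels below are CPM without division by length and are compared within a gene. A total of 8 of the 9 genes had enough counts for the test, and C3 did not.

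**Figure D1:**
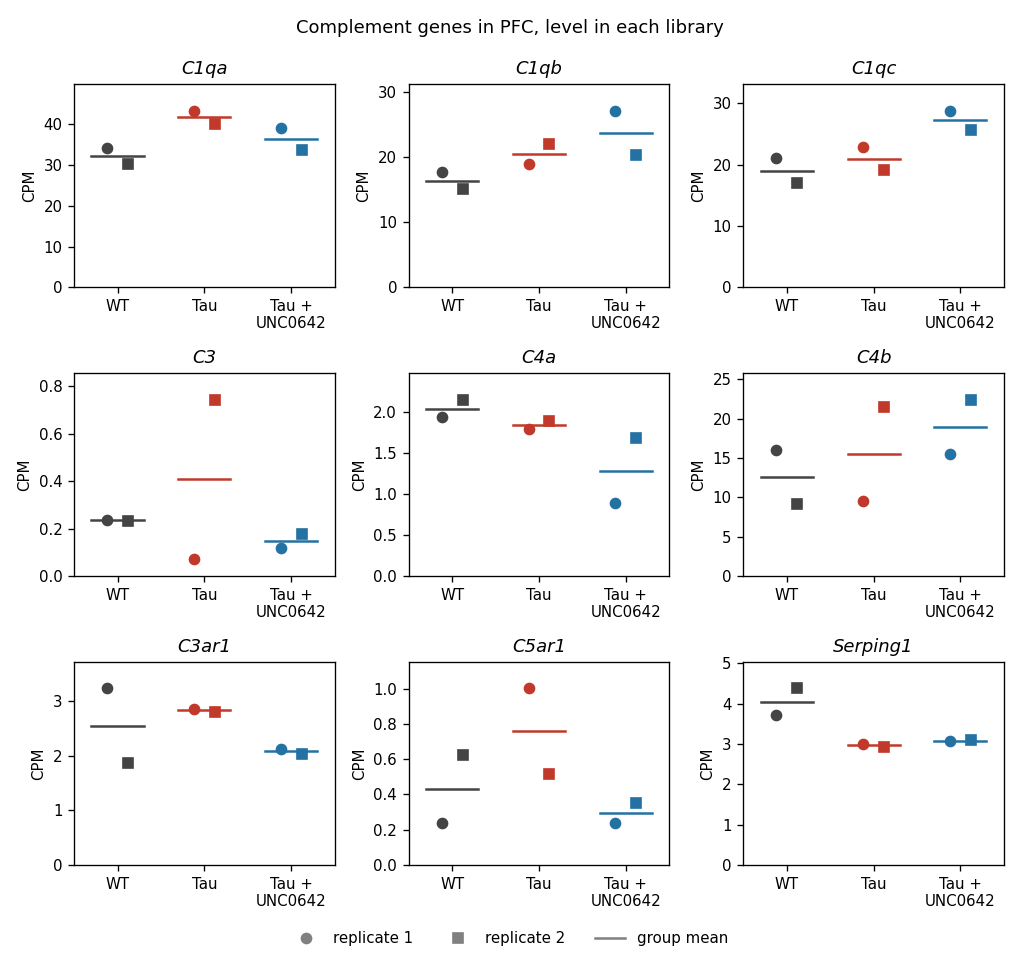
CPM of the 9 complement genes (y axis, 1 panel a gene, each from 0) in the 3 groups (x axis), with a circle for replicate 1, a square for replicate 2 and a line at the mean of the 2 libraries. The C1q chains lie between 15.1 and 43.3 CPM in every library, and C3 stays below 1 CPM throughout.

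In Tau against WT, C1qa was 1.30-fold higher, and the other 7 tested genes were not called. A gene was called where edgeR's quasi-likelihood test gave p under 0.05 before adjustment and the groups differed by 1.2-fold or more, the threshold of the study. The 1 called gene of 8 stands beside 9.81% called among all 20409 genes, and the groups did not overlap for 4 of the 8 against 43.2% of all genes. The median log2 fold change of the 8 genes was 0.22, beside −0.00011 for all genes. In UNC0642-treated against untreated Tau mice, C1qc was called 1.30-fold higher, with 7.69% of all genes called, and the groups did not overlap for 6 of the 8 genes against 41.3% of all genes. The median log2 fold change was −0.07, beside −0.0023 for all genes. In UNC0642-treated Tau mice against WT, C1qb and C1qc were called higher, 2 of 8 beside 9.47% of all genes, with 4 of the 8 not overlapping against 44.4%, and a median of −0.06 beside −0.012. No gene of the 8 passed an adjusted p-value of 0.05 in any of the 3 comparisons with edgeR, DESeq2 or limma-voom, whereas 1, 1 and 2 had an unadjusted p-value under 0.05 with each of these tools. Among all genes, 0.157%, 0.0196% and 0.216% passed the adjusted threshold in edgeR. The comparisons share libraries, so that each pair of them has 1 group in common.

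**Figure D2:**
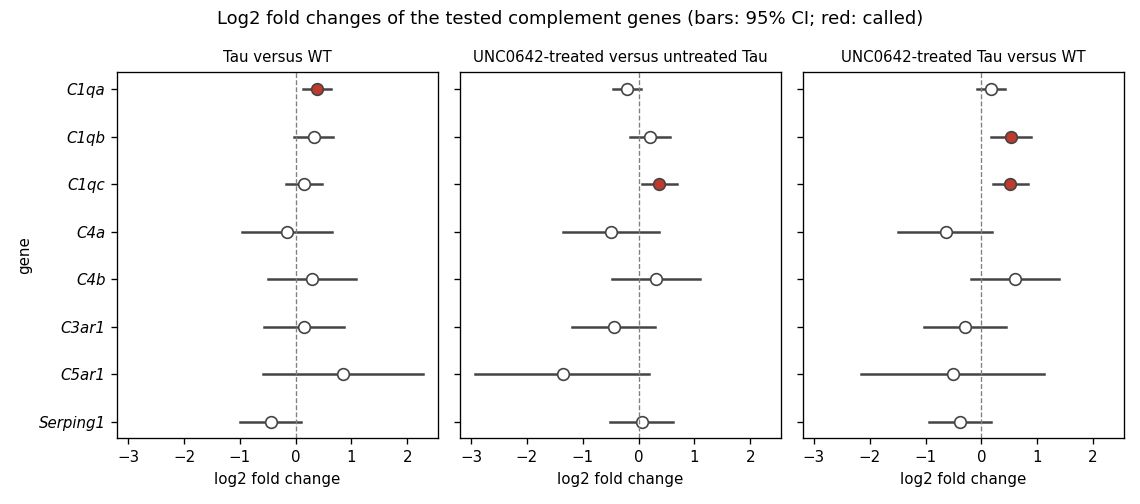
Log2 fold change (x axis) of the 8 tested genes in the 3 comparisons (1 panel each), with bars for the 95% confidence interval of the edgeR fit and called genes in red. The intervals lie above 0 for C1qa in Tau against WT, for C1qc in UNC0642-treated against untreated Tau, and for C1qb and C1qc in UNC0642-treated Tau against WT.

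C1qa encodes the A chain of C1q. It was at 34.1 CPM in the library labelled WT replicate 1 and 30.3 CPM in WT replicate 2, at 43.3 and 40.2 CPM in Tau and at 39.1 and 33.6 CPM in UNC0642-treated Tau. Both Tau libraries were above every other library, and the UNC0642 libraries overlapped those of WT. The group means were 32.2 ± 2.65 CPM in WT, 41.8 ± 2.22 CPM in Tau and 36.3 ± 3.86 CPM with UNC0642 (SD, n = 2). The log2 fold change of Tau against WT was 0.38 (SE 0.113, 95% interval 0.12 to 0.63), with a Benjamini-Hochberg adjusted p-value of 0.279 in edgeR. It was 0.46 without the library labelled WT replicate 1, and 0.32 with an unadjusted edgeR p-value of 0.0538, no longer called, without Tau replicate 1. C1qa is among the genes that the study itself selected on these libraries, as raised in Tau and reversed by UNC0642. Its call is therefore not independent evidence of a direction. In UNC0642-treated against untreated Tau mice, the log2 fold change of C1qa was −0.20 (SE 0.114, interval −0.46 to 0.05, edgeR adjusted p = 0.636), which was not called, and it ran from −0.32 without UNC0642 replicate 1 to −0.097 without UNC0642 replicate 2. The reversal that the study lists for C1qa was thus not called in this fit. UNC0642-treated Tau against WT gave 0.17, and 0.26 without the library labelled WT replicate 1, with no call.

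C1qb, the B chain, was at 17.7 CPM in the library labelled WT replicate 1 and 15.1 CPM in WT replicate 2, at 19.0 and 22.1 CPM in Tau and at 27.1 and 20.4 CPM with UNC0642. The WT libraries were the lowest, and the Tau and UNC0642 libraries overlapped. The means were 16.4 ± 1.83, 20.6 ± 2.18 and 23.7 ± 4.76 CPM in WT, Tau and UNC0642-treated Tau (SD, n = 2). UNC0642-treated Tau mice were 1.45-fold above WT (log2 fold change 0.53, SE 0.159, interval 0.18 to 0.89, edgeR adjusted p = 0.241). It was 0.65 without the library labelled WT replicate 1. This call was lost without UNC0642 replicate 1, where the log2 fold change was 0.32. It was also lost in a fit with a term for the sex pattern, at 0.42. Since both UNC0642 libraries have the male pattern, that fit in effect compares them with the library labelled WT replicate 1 alone. Tau against WT gave 0.33 (SE 0.159, interval −0.03 to 0.68, edgeR adjusted p = 0.434), not called with all libraries and at the edge of the threshold: it was called at 0.44 without the library labelled WT replicate 1, at 0.43 without Tau replicate 1 and at 0.33 and 0.32 without UNC0642 replicate 1 or 2. UNC0642-treated against untreated Tau gave 0.21 (SE 0.158, interval −0.14 to 0.56), which was not called, and ran from −0.011 without UNC0642 replicate 1 to 0.40, called, without UNC0642 replicate 2.

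C1qc, the C chain, was at 21.01 CPM in the library labelled WT replicate 1 and 16.95 CPM in WT replicate 2, at 22.8 and 19.1 CPM in Tau and at 28.8 and 25.7 CPM with UNC0642. Both UNC0642 libraries were above the other 4, and WT and Tau overlapped. The means were 19.0 ± 2.87 CPM in WT, 20.9 ± 2.65 CPM in Tau and 27.2 ± 2.16 CPM with UNC0642 (SD, n = 2). Against untreated Tau, the log2 fold change was 0.37 (SE 0.143, interval 0.06 to 0.69, edgeR adjusted p = 0.503). That call was lost without Tau replicate 2 at 0.25, without UNC0642 replicate 1 at 0.29, and with the term for the sex pattern at 0.06. Against WT, UNC0642-treated Tau mice were 1.43-fold higher (log2 fold change 0.52, SE 0.143, interval 0.20 to 0.84, edgeR adjusted p = 0.207). The 6 fits without 1 library ranged from 0.37 to 0.68. The lowest was without WT replicate 2 and the highest without the library labelled WT replicate 1. The sex term also gave 0.37. It again compares the UNC0642 libraries with the library labelled WT replicate 1, so it is no separate check. Tau against WT was not called, at 0.15 (SE 0.143, interval −0.17 to 0.46). It was 0.31 without the library labelled WT replicate 1 and 0.0032 without WT replicate 2.

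The C1q protein is built from equal numbers of its 3 chains, so the make-up of the C1q counts was also set out per library. This measure was chosen after the values had been seen and carries no test, and it does not depend on the scaling of the libraries. C1qa made up 46.9% and 48.7% of the C1q counts in WT, 50.9% and 49.4% in Tau, and 41.1% and 42.2% with UNC0642. The exact 95% binomial intervals reached from 44.6% to 52.9% over the WT and Tau libraries and from 38.7% to 44.5% over the UNC0642 libraries. C1qa thus held a smaller share in both UNC0642 libraries than in the other 4. The highest limit with UNC0642 was 44.5% and the lowest limit of the others 44.6%, so the intervals barely parted. The share of C1qc was 28.9% and 27.2% in WT, 26.8% and 23.4% in Tau and 30.3% and 32.3% with UNC0642, highest in the UNC0642 libraries. C1qb held 24.3% and 24.2% in WT, 22.3% and 27.2% in Tau and 28.6% and 25.6% with UNC0642, where Tau overlapped both other groups and WT lay below UNC0642. The 3 chains summed to 72.8 and 62.4 CPM in WT, 85.2 and 81.4 CPM in Tau, and 94.97 and 79.7 CPM with UNC0642, so the summed level was lowest in WT and overlapped between Tau and UNC0642-treated Tau. These intervals, and the Poisson intervals below, cover counting error alone and treat each count as an independent read. Many low counts in these libraries were even numbers. If both reads of a pair were counted, the intervals would be too narrow and could overlap here. The sex pattern of the libraries separates the Tau and UNC0642 groups here as well.

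**Figure D3:**
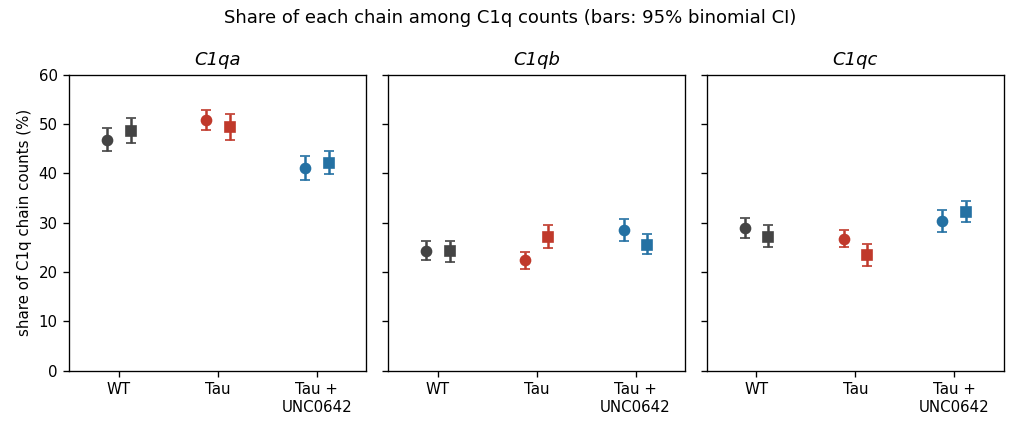
Share of C1qa, C1qb and C1qc (1 panel each) in the summed C1q counts (y axis, percent) in each of the 6 libraries by group (x axis), with exact 95% binomial intervals. C1qa falls between 46.9% and 50.9% in the WT and Tau libraries and at 41.1% and 42.2% in the UNC0642 libraries.

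Microglial markers were summed beside the C1q chains, since microglia are their main source. The 15 markers, all tested, summed to 421 and 454 CPM in WT, 487 and 506 CPM in Tau, and 435 and 433 CPM with UNC0642. In Tau against WT, 3 of the 15 were called higher, beside 3.72% of all genes, and none lower. In UNC0642-treated against untreated Tau mice, 4 of the 15, P2ry12, Fcrls, Siglech and Olfml3, were called lower, beside 3.95% of all genes, and none higher, and in UNC0642-treated Tau mice against WT, 3 were called lower, beside 5.69%. Some of the 15, Olfml3 included, are among the genes the study itself selected on these libraries, so these counts are not independent evidence of a direction. The median log2 fold changes of the 15 markers were 0.19, −0.30 and −0.10 in these comparisons. Those of C1qa were 0.38, −0.20 and 0.17, and those of C1qc 0.15, 0.37 and 0.52. The values of C1qa and of the microglial sum were thus both highest in the Tau libraries, whereas C1qc was highest in the UNC0642 libraries, where the microglial sum was below that of both Tau libraries. Perivascular macrophages express C1q as well, and their 7 markers summed to 13.8 and 19.7 CPM in WT, 18.2 and 12.4 CPM in Tau, and 15.6 and 18.6 CPM with UNC0642, with overlapping groups. The part of either cell type in the C1q values was not tested.

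C3, the component on which the pathways converge, was close to the floor. It had 6 counts in each WT library, 2 and 13 counts in Tau, and 2 and 4 counts with UNC0642. Tau replicate 2 was highest with 0.744 CPM (exact Poisson 95% interval 0.396 to 1.27 CPM), and the other 5 libraries lay between 0.0715 and 0.237 CPM. Without a filter on low counts, the log2 fold change of Tau against WT was 0.68 with an SE of 1.02, and that of UNC0642-treated against untreated Tau was −1.31 with an SE of 1.11. A difference in C3 was not detectable at this depth.

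C4b, the C4 of the classical pathway, was at 16.0 CPM in the library labelled WT replicate 1 and 9.14 CPM in WT replicate 2, at 9.58 and 21.5 CPM in Tau and at 15.5 and 22.4 CPM with UNC0642. The groups overlapped in every comparison, and the spread within a group was of the size of the distance between groups. The means were 12.6 ± 4.83 CPM in WT, 15.6 ± 8.45 CPM in Tau and 19.0 ± 4.88 CPM with UNC0642 (SD, n = 2). The log2 fold changes were 0.29 (SE 0.355, interval −0.50 to 1.07) in Tau against WT, 0.31 (SE 0.352, interval −0.47 to 1.10) in UNC0642-treated against untreated Tau and 0.60 (SE 0.352, interval −0.18 to 1.38) in UNC0642-treated Tau against WT. None was called, with edgeR adjusted p-values from 0.530 to 0.845. Single libraries decided these values. Tau against WT ran from −0.39 without Tau replicate 2 to 0.78, called, without Tau replicate 1 and was 0.73, not called, without the library labelled WT replicate 1, and UNC0642-treated against untreated Tau ran from −0.18 without Tau replicate 1 to 0.99, called, without Tau replicate 2. UNC0642-treated Tau against WT was called at 1.06 without the library labelled WT replicate 1, and at 0.60 without either Tau library.

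C4b was set beside the markers of other cell types. The 10 oligodendrocyte markers summed to 3141 CPM in the library labelled WT replicate 1 and 1562 CPM in WT replicate 2, 2181 and 5899 CPM in Tau, and 2283 and 2433 CPM with UNC0642. Within WT and within Tau, the library with the higher oligodendrocyte sum was also the one with more C4b. For correlations, the score of a list was the mean of log2(CPM + 0.5) over its genes, and not the sum. Over the 6 libraries, which share the depth and dissection of each mouse, the correlation of log2 CPM of C4b with the oligodendrocyte list was 0.69, and with the list of 10 meningeal fibroblast markers it was −0.77, given as a description. For the lists of neurons, perivascular macrophages and astrocytes it was −0.69, −0.58 and 0.48, and for the other 4 lists it lay between −0.28 and 0.060. Meningeal fibroblast markers summed to 72.1 and 102 CPM in WT, 69.0 and 47.2 CPM in Tau, and 73.1 and 65.4 CPM with UNC0642. The 11 astrocyte markers summed to 5729 to 6470 CPM, of which Slc1a2 made up 3047 to 3605 CPM. Gfap, a marker of reactive astrocytes within that list, was at 60.001 and 49.4 CPM in WT, 55.3 and 111.6 CPM in Tau, and 72.7 and 73.1 CPM with UNC0642, and within WT and within Tau it was higher in the library with more C4b. The part of these cell types in the C4b values was not tested.

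**Figure D4:**
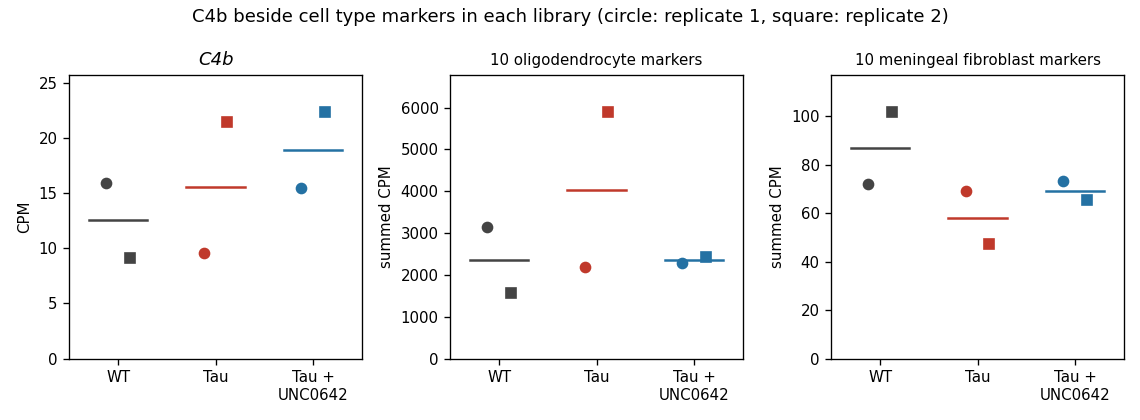
C4b in CPM and the summed CPM of 10 oligodendrocyte and 10 meningeal fibroblast markers (y axes, 1 panel each) in the 3 groups (x axis), with a circle for replicate 1, a square for replicate 2 and a line at the mean. Tau replicate 2 has the highest oligodendrocyte sum, 5899 CPM, with 21.5 CPM of C4b, and UNC0642 replicate 2 reaches 22.4 CPM of C4b at a sum of 2433 CPM.

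C4a was at 1.93 and 2.15 CPM in WT, at 1.79 and 1.89 CPM in Tau, and at 0.888 and 1.68 CPM with UNC0642. Each group lay below the one before without overlap, from 2.04 ± 0.153 CPM in WT to 1.84 ± 0.0719 CPM in Tau and 1.28 ± 0.557 CPM with UNC0642 (SD, n = 2), but none of the differences was called. The log2 fold changes were −0.15 (SE 0.365), −0.49 (SE 0.385) and −0.64 (SE 0.379) in Tau against WT, UNC0642-treated against untreated Tau and UNC0642-treated Tau against WT. Without the library labelled WT replicate 1, Tau and UNC0642-treated Tau against WT gave −0.23 and −0.72. The lowest library, UNC0642 replicate 1, held 15 counts of C4a, and without UNC0642 replicate 2 UNC0642-treated Tau against untreated Tau and against WT gave −1.04 and −1.20 and were called. C4a made up 10.8% and 19.0% of the C4a and C4b counts in WT, 15.7% and 8.07% in Tau, and 5.42% and 6.96% with UNC0642. With the counts of both genes added, the log2 fold changes were 0.23, 0.25 and 0.48 in the same order, with no call, so the C4 total did not share the sign of C4a.

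The receptors of the fragments C3a and C5a, carried by microglia and other myeloid cells, were scarce. C3ar1 was at 3.23 CPM in the library labelled WT replicate 1 and 1.87 CPM in WT replicate 2, at 2.86 and 2.81 CPM in Tau and at 2.13 and 2.03 CPM with UNC0642. Both UNC0642 libraries were below both Tau libraries, and WT spanned the range of the others. The log2 fold change of UNC0642-treated against untreated Tau was −0.45 (SE 0.333, interval −1.19 to 0.29, edgeR adjusted p = 0.737) and was not called, whereas the fit with the sex term gave −1.23 with a call. Tau against WT was 0.15 (SE 0.322) and UNC0642-treated Tau against WT was −0.30 (SE 0.332), neither called, and these were 0.59 and 0.15 without the library labelled WT replicate 1.

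C5ar1 had 6 counts in the library labelled WT replicate 1 and 16 in WT replicate 2, 28 and 9 counts in Tau, and 4 and 8 counts with UNC0642. These amounted to 0.237 and 0.625 CPM in WT, 1.00 and 0.515 CPM in Tau, and 0.237 and 0.353 CPM with UNC0642. The UNC0642 libraries were below both Tau libraries, and the exact Poisson 95% intervals of Tau replicate 2 (0.236 to 0.978 CPM) and UNC0642 replicate 2 (0.152 to 0.695 CPM) overlapped. The log2 fold change of UNC0642-treated against untreated Tau was −1.36 (SE 0.703, interval −2.94 to 0.19, edgeR adjusted p = 0.602), and with the sex term it was 0.02. Tau against WT gave 0.84 (SE 0.648) and UNC0642-treated Tau against WT −0.52 (SE 0.737), which became 0.31 and −1.05 without the library labelled WT replicate 1. None was called.

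Serping1 encodes the C1 inhibitor. It was at 3.71 CPM in the library labelled WT replicate 1 and 4.37 CPM in WT replicate 2, at 3.003 and 2.92 CPM in Tau and at 3.08 and 3.09 CPM with UNC0642. Both libraries labelled WT were thus above the other 4, although WT replicate 1 had the Prnp level of the transgenic libraries. The means were 4.04 ± 0.473 CPM in WT, 2.96 ± 0.0589 CPM in Tau and 3.08 ± 0.00638 CPM with UNC0642 (SD, n = 2). The log2 fold change of Tau against WT was −0.45 (SE 0.248, interval −0.998 to 0.104, edgeR adjusted p = 0.491) and that of UNC0642-treated Tau against WT was −0.39 (SE 0.249, interval −0.94 to 0.16), and neither was called. UNC0642-treated against untreated Tau gave 0.06 (SE 0.256, interval −0.51 to 0.62). Without the library labelled WT replicate 1 the values against WT were −0.56 and −0.51, again with no call. Over the 6 libraries the correlation of log2 CPM of Serping1 with the list of meningeal fibroblast markers was 0.78 and with that of red blood cell markers 0.94, again as a description, while for the other 7 lists it lay between −0.72 for astrocytes and 0.62 for endothelial cells. Red blood cell markers summed to 60.7 and 63.4 CPM in WT, 39.7 and 39.0 CPM in Tau, and 41.3 and 66.2 CPM with UNC0642. The sum was highest in UNC0642 replicate 2, but its mean log2 score was 2.73, against 3.13 and 3.18 in WT. In that library Hba-a1 was at 15.4 CPM and Hba-a2 at 0.0882 CPM, against 4.14 and 3.02 CPM in UNC0642 replicate 1. The correlation of 0.94 thus does not hold for the sums in the same way. The part of these markers in the Serping1 values was not tested.

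Beyond these genes, 47 others of the cascade were listed by role, and 27 of them had enough counts for the test. In Tau against WT, 1 was called higher and 2 lower of 27, beside 3.72% of all genes called higher and 6.1% lower. In UNC0642-treated against untreated Tau mice, 1 was called higher and 2 lower, beside 3.73% and 3.95% of all genes. In UNC0642-treated Tau against WT, none was called higher and 2 lower, beside 3.77% and 5.69%. With edgeR and limma-voom none had an adjusted p-value under 0.05, against 4, 3 and 3 with an unadjusted one in either tool, and with the DESeq2 Wald test Vtn alone passed, in Tau against WT (adjusted p = 0.0338). The median log2 fold changes of the 27 genes were −0.06, −0.08 and −0.11.

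By role, none of the 5 tested initiation proteases and recognition molecules was called, the most abundant being Masp1, a protease of the lectin pathway, at 9.75 to 12.9 CPM. None was called of the 2 tested genes of C2 and the alternative pathway, where Cfp, encoding properdin, was at 2.31 to 4.37 CPM, or of the 2 of the terminal pathway, where C8g was at 1.19 to 1.66 CPM. C6, C9, Mbl1 and Cpn2 had no count in any library. None of the 5 tested receptors was called, and Itgam, a chain of complement receptor 3 on microglia, was at 3.75 CPM in the library labelled WT replicate 1 and at 5.43 to 5.66 CPM in the other 5.

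The called genes were among those listed as soluble or membrane regulators. Cd93 was listed with the membrane regulators although it was once described as a C1q receptor, so the receptors above leave it out. Vtn, vitronectin, which binds the terminal complex, was at 64.2 CPM in the library labelled WT replicate 1 and 50.2 CPM in WT replicate 2, at 41.5 and 38.0 CPM in Tau and at 43.9 and 40.5 CPM with UNC0642. It fell in Tau against WT by 0.52 on the log2 scale (SE 0.124, edgeR adjusted p = 0.196), with both WT libraries above the other 4, and by 0.34, still called, without the library labelled WT replicate 1. In UNC0642-treated Tau against WT its call at −0.44 was lost without the library labelled WT replicate 1, at −0.25. Clu, clusterin, the most abundant soluble regulator, was at 443.6 to 548.5 CPM and was not called.

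Cd59a, a membrane protein that blocks assembly of the terminal complex, was at 6.94 CPM in the library labelled WT replicate 1 and 6.17 CPM in WT replicate 2, at 9.19 and 8.59 CPM in Tau and at 7.16 and 5.51 CPM with UNC0642. Both Tau libraries were the highest for Cd59a. Its log2 fold change was 0.44 (SE 0.189, edgeR adjusted p = 0.392) in Tau against WT, a call lost without the library labelled WT replicate 1 although the value was 0.53. In UNC0642-treated against untreated Tau the log2 fold change of Cd59a was −0.50 (SE 0.193, edgeR adjusted p = 0.511). That call was lost with the sex term, although the value there was −0.67. Its near copy Cd59b stayed below 1 CPM in every library, with 27 and 10 counts in Tau against 4 and 2 with UNC0642, and was called lower in that comparison. Reads shared by Cd59a and Cd59b could be split in ways not known here. Without UNC0642 replicate 2, none of the 27 wider genes was called in UNC0642-treated against untreated Tau by edgeR, and without Tau replicate 1 a single gene was.

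Cd93, once described as a C1q receptor and found on endothelial and myeloid cells, was at 9.19 and 8.48 CPM in WT, at 5.08 and 5.15 CPM in Tau and at 6.51 and 9.40 CPM with UNC0642. Both Tau libraries were below every other library. Its log2 fold change was −0.79 (SE 0.207, edgeR adjusted p = 0.235) in Tau against WT and 0.65 (SE 0.210, edgeR adjusted p = 0.444) in UNC0642-treated against untreated Tau, and the latter was 0.53 and not called with the sex term, while the former was −0.73 and called without the library labelled WT replicate 1. Cd93 too is among the genes the study selected on these libraries, as is a gene of the endothelial list that follows. The 9 endothelial markers summed to 213 and 205 CPM in WT, 151 and 159 CPM in Tau, and 147 and 199 CPM with UNC0642, and 5 of the 9 were called lower in Tau against WT, beside 6.1% of all genes. Their part in the Cd93 values was not tested. The other named membrane regulators were neuronal: Csmd1, the most abundant at 201.3 to 234.2 CPM, was not called, and Csmd2 was called lower in UNC0642-treated Tau against WT (log2 fold change −0.29, edgeR adjusted p = 0.347), a call kept at −0.42 without the library labelled WT replicate 1 and lost at −0.16 with the sex term, at 85.2 and 102 CPM in WT and at 77.7 and 74.5 CPM with UNC0642.

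**Figure D5:**
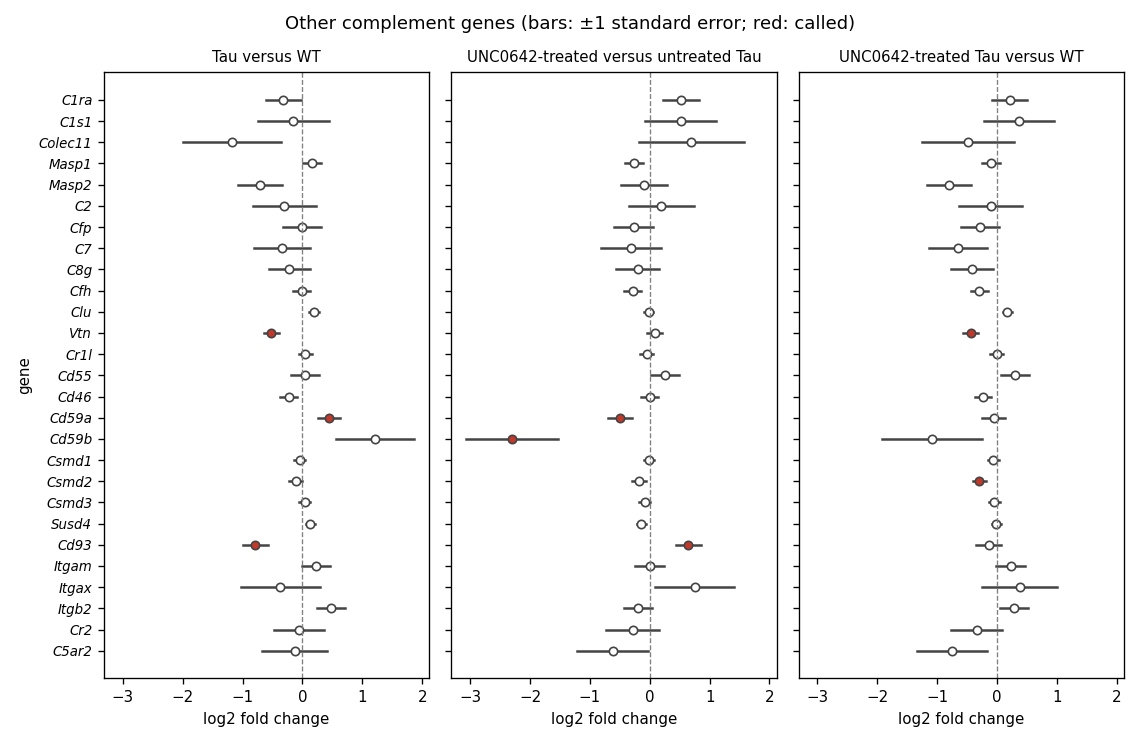
Log2 fold change (x axis) of the 27 tested genes of the wider complement list, ordered by role, in the 3 comparisons (1 panel each), with bars of 1 standard error to each side and called genes in red. Vtn and Cd93 lie below 0 and Cd59a above 0 in Tau against WT, and Cd93 lies above 0 and Cd59a and Cd59b below 0 in UNC0642-treated against untreated Tau.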

How the data were processed

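RNA of bulk PFC was sequenced in 2 libraries of each of 3 groups. Per the labels and methods, strand-specific, ribosomal RNA-depleted libraries were run on an Illumina HiSeq, and reads were trimmed with Cutadapt and aligned with TopHat2 to mouse RefSeq mRNAs (mm10). The authors counted reads per gene with featureCounts and deposited raw counts; its strand and multi-match settings are not given in the sources used here. In 2 files, 26 gene names had become dates and were joined by position.

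Counts were analysed in R 4.3.3 with edgeR 4.0.16. filterByExpr (minimum count 10, minimum total 15) kept 20409 genes. With TMM scaling (factors 0.966 to 1.04), 1 quasi-likelihood model was fitted to all 6 libraries with 3 residual degrees of freedom and no covariate. A gene was called at p under 0.05 with a change of 1.2-fold or more, and p-values were adjusted by Benjamini-Hochberg over all genes tested. SEs come from the model and SDs from 2 libraries. An exact permutation test of 2 against 2 libraries cannot give a p-value below 0.333. Coordinates and exon lengths are from GENCODE M21 (GRCm38).

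The members, the wider list, the marker lists and the naming rule (all members, called genes of the wider list in the first 2 comparisons and the most abundant gene of each role, with Csmd2, Gfap, Slc1a2 and the called microglial markers named after their values were seen) were chosen with earlier results of these data known. Alternatives were DESeq2 1.42.0 size factors or library size alone, no or a stricter filter, the DESeq2 Wald test, limma-voom (limma 3.58.1), the 2 compared groups alone, a replicate block, a term for sex-linked expression, other thresholds, C4a and C4b counts added, and fits without each library. The fit was tested on simulated data. Replicate numbers come from the labels, and same-numbered libraries are different mice. The genes with a pattern most like C4b are not reported here.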

Additional observations from a re-analysis of the deposited data

How the results depend on the processing

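Counts of called complement genes stayed within 1.5 times the values reported (1, 1 and 2 in Tau against WT, UNC0642-treated against untreated Tau, and UNC0642-treated Tau against WT) under DESeq2 size factors, library size alone, the stricter filter, the DESeq2 Wald test, limma-voom and fits of the compared groups alone. Without a filter they were 2, 2 and 3. With the sex term they were 2, 1 and 1, but the genes changed. In UNC0642-treated against untreated Tau the called gene was then C3ar1, lower, in place of C1qc, higher. In UNC0642-treated Tau against WT, C1qb was no longer called. At a fold change of 1.5 or with adjusted p-values the counts were 0, 0 and 0. Without single libraries they ranged from 1 to 2, from 0 (UNC0642 replicate 1 left out) to 3 (UNC0642 replicate 2 left out) and from 1 (UNC0642 replicate 1 left out) to 3. Of the 27 wider genes, 3, 3 and 2 were called, 5 without a filter in the second comparison, 4 with library size alone in the third, and 1 and 1 with the sex term in these. Without single libraries the ranges were 2 to 3, 0 to 4 and 1 to 2.

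The signs of C1qa, C1qc and Serping1 were the same in all alternatives run, though C1qc in Tau against WT was only 0.0032 without WT replicate 2. With the sex term, UNC0642-treated against untreated Tau gave −0.02 for C1qb, −0.48 for C4b and 0.023 for C5ar1 on the log2 scale, and UNC0642-treated Tau against WT gave 0.34 for C5ar1. The sex term rests on the WT pair, 1 of which also had the Prnp level of the transgenic libraries. With it, Tau is in effect compared with WT replicate 2, and UNC0642-treated Tau with the library labelled WT replicate 1, by shared sex pattern. Adding C4a and C4b counts gave 0.23, 0.25 and 0.48 in the 3 comparisons, against negative values for C4a. Without single libraries, Tau against WT ranged from −0.39 to 0.78 for C4b and −0.19 to 0.59 for C3ar1, UNC0642-treated against untreated Tau from −0.011 to 0.40 for C1qb and −0.18 to 0.99 for C4b, and UNC0642-treated Tau against WT from −0.64 to 0.15 for C3ar1 and −1.05 to 0.33 for C5ar1. Removing 1 library left a group with 1 sample, assumed to vary like the others. The causes were not tested.

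A fit with the replicate number as a block called 1, 1 and 2 complement genes and 3, 3 and 2 wider genes and changed no call of the 8 genes. The deviations of same-numbered libraries correlated at −0.0344, −0.0212 and −0.00335 between groups. With 2 libraries a group, these values cannot show whether same-numbered libraries shared a batch. C3 was too shallow for the test, and C5ar1 and Cd59b had at most 28 counts in any library.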

Other observations

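Genes with a pattern most like the mean log2 CPM of the 3 C1q chains were sought among 12084 genes at a mean of at least 5 CPM, over 6 libraries. The closest 5 were Tbc1d2b (Pearson r = 0.993), Enoph1 (0.992), Tm2d2 (0.987), Mmadhc (0.986) and Gm5526 (0.985). With 6 points and this many genes, a high value is no sign of a relation, and they are given as a description. Among the complement genes themselves, the log2 CPM of C1qb and C1qc correlated at 0.76 and that of C1qa and C1qc at 0.38, and that of Serping1 and C1qa at −0.82.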
